A study of Mus musculus with 18 samples.

Results

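Matricellular and adhesive glycoproteins are secreted proteins that cells lay down around themselves and then read through surface receptors. The 10 genes described here, Tnc, Thbs1, Thbs2, Postn, Sparc, Spon1, Tnxb, Fn1, Matn2 and Agrn, were taken by name from an RNA sequencing table with 24445 gene symbols, with 1 transcript for each symbol. All 10 were found, and all 10 were among the 12599 genes that reached 1 FPKM in at least 2 libraries (FPKM is an expression level scaled by transcript length and by library depth). Tnxb passed that limit in exactly 2 libraries, both from wild-type cells, so its passing depends on the group in which it was high.

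The cells were primary fibroblasts grown from mouse tail tips, from animals aged 2 months, and were used at passage 5. There were 3 genotypes. Pro/Pro;Cas9/+ mice carried 2 copies of the Pro allele and a Cas9 transgene. +/+;Cas9/+ mice carried the transgene on a wild-type background, and Pro/+; +/+ mice carried 1 Pro copy and no Cas9. Cells of these genotypes are called homozygous, wild-type and heterozygous cells, in that order. The labels do not spell out Pro. The series title names Hutchinson-Gilford progeria, a premature ageing disease of the lamin A gene. The promoter of the Cas9 transgene is not given in the sources used here. Each genotype had 2 mice, and cells of each mouse received lentivirus with a guide that matches nothing in the genome (gMock), with gLmna-1 or with gLmna-2, which makes 18 libraries in 9 groups of 2. For the second Pro/+; +/+ culture the labels do not say whether its name stands for 1 animal or for a pool. All cultures, controls included, saw the mCherry virus and 4 µg/ml polybrene. Each was more than 80% mCherry-positive and none was sorted, so untransduced cells could be part of every library.

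Matricellular proteins such as tenascins, thrombospondins, periostin and SPARC add little to the mechanical strength of a matrix and instead adjust how cells attach to it and how growth factors are held there. Fibronectin, agrin and the matrilins are adhesive proteins that link collagens, proteoglycans and integrins. In skin, tenascin-C, periostin and fibronectin are best known as products of fibroblasts during wound repair.

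Fibronectin is known for alternative splicing, so its optional exons are shown first because the ratios given further on turn on them. Fn1 lies on the minus strand of chromosome 1 at chr1:71585473-71653234 (mm10). Its extra domain A (EDA) is a single exon of 270 bases at chr1:71603660-71603929, and extra domain B (EDB) is a single exon of 273 bases at chr1:71613763-71614035. Each encodes 1 fibronectin type III repeat. Tnc lies on the minus strand of chromosome 4 at chr4:63959785-64047015, and 5 of its type III repeats are single exons of 273 bases. The second of these from the 5′ end, at chr4:63999913-64000185, is shown as the example because it had the largest fitted genotype difference of the 5. The sequences are the transcript strand, 5′ to 3′, from the GENCODE M21 transcripts. Capitals in EDA mark the 21 bases, 117 to 137 of the exon, that encode the loop known as a binding site of integrins α4β1 and α9β1. The other 2 sequences have no capitals.

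Fn1 EDA: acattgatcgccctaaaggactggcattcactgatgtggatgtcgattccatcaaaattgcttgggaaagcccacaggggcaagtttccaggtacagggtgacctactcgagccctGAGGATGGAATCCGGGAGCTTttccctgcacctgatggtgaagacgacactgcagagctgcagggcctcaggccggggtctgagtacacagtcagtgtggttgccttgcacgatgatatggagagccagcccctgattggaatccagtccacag

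Fn1 EDB: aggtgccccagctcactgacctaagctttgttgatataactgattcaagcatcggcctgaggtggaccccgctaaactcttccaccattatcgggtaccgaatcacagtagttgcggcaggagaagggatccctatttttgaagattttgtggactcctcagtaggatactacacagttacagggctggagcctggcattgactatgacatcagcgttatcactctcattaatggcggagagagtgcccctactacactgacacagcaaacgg

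Tnc repeat exon 2: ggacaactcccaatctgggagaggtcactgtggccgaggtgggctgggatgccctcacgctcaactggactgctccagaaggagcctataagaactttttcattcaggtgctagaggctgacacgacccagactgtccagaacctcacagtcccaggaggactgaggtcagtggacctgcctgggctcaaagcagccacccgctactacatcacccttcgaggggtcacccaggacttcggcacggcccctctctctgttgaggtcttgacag

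The 5 Tnc repeat exons are alike in length but not in sequence. Compared position by position, identity between pairs ran from 41.03% (repeat exons 2 and 5) to 80.2% (repeat exons 1 and 3).

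Depth recovered from the table was between 22424409 and 42622062 reads per library. Fibroblast markers were high throughout, with the summed level of 9 genes (Col1a1, Col1a2, Col3a1, Pdgfra, Pdgfrb, Thy1, Dcn, Lum and Vim) between 7039 and 9527 FPKM. Macrophage markers were also present. Of 7 immune genes 5 reached 1 FPKM in some library, Cd3e was listed at 0 in every library, and the summed level was 390.0 to 1326 FPKM in homozygous cells, 57.4 to 373 in wild-type cells and 59.3 to 504 in heterozygous cells. Markers of cartilage and bone summed to 15.01 to 417 FPKM in homozygous cells, 7.60 to 62.6 in wild-type cells and 31.6 to 150 in heterozygous cells. In bulk RNA fewer cells of a type and less RNA per cell cannot be told apart. One library stood apart in its coverage. In the homozygous gLmna-1 library of replicate 1 the median log2 ratio of the 3′-most parts of a gene to its 5′-most parts was 0.70, against 0.35 to 0.50 in the other 17. For Fn1 the ratio itself was 2.46 there and 1.37 to 1.80 elsewhere, and for Tnc 2.24 against 1.37 to 1.78. For many of the tests that rest on this library, but not for all, values or counts without it are given beside the main ones. Lmna, the gene the guides target, was at 217 to 370 FPKM in homozygous cells, 272 to 381.4 in wild-type cells and 196 to 291 in heterozygous cells. A cut allele can still be transcribed, so this level does not check editing.

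The 10 genes covered a wide range of levels. Sparc, which binds collagen and calcium and counters cell spreading, was the highest with a median of 3782 FPKM over the 18 libraries. Thbs1, a trimeric thrombospondin that activates latent TGF-β, followed at 2813, and Fn1 at 2364. Tnc, which weakens fibronectin-mediated adhesion, had a median of 251, Thbs2, the second trimeric thrombospondin, 159, and Postn, an integrin ligand of healing and fibrotic tissue, 87.2. Matn2, a filament-forming adaptor, was at 15.4 and Agrn, the heparan sulfate proteoglycan of neuromuscular junctions and basement membranes, at 9.58. Spon1, which encodes F-spondin, was at 4.60. Tnxb, the tenascin that spaces collagen fibrils, was at 0.38, from 32 to 487 reads per library, so it was barely detected. Fn1, Thbs1 and Sparc each rested on at least 165696 reads in every library.

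**Figure D1:**
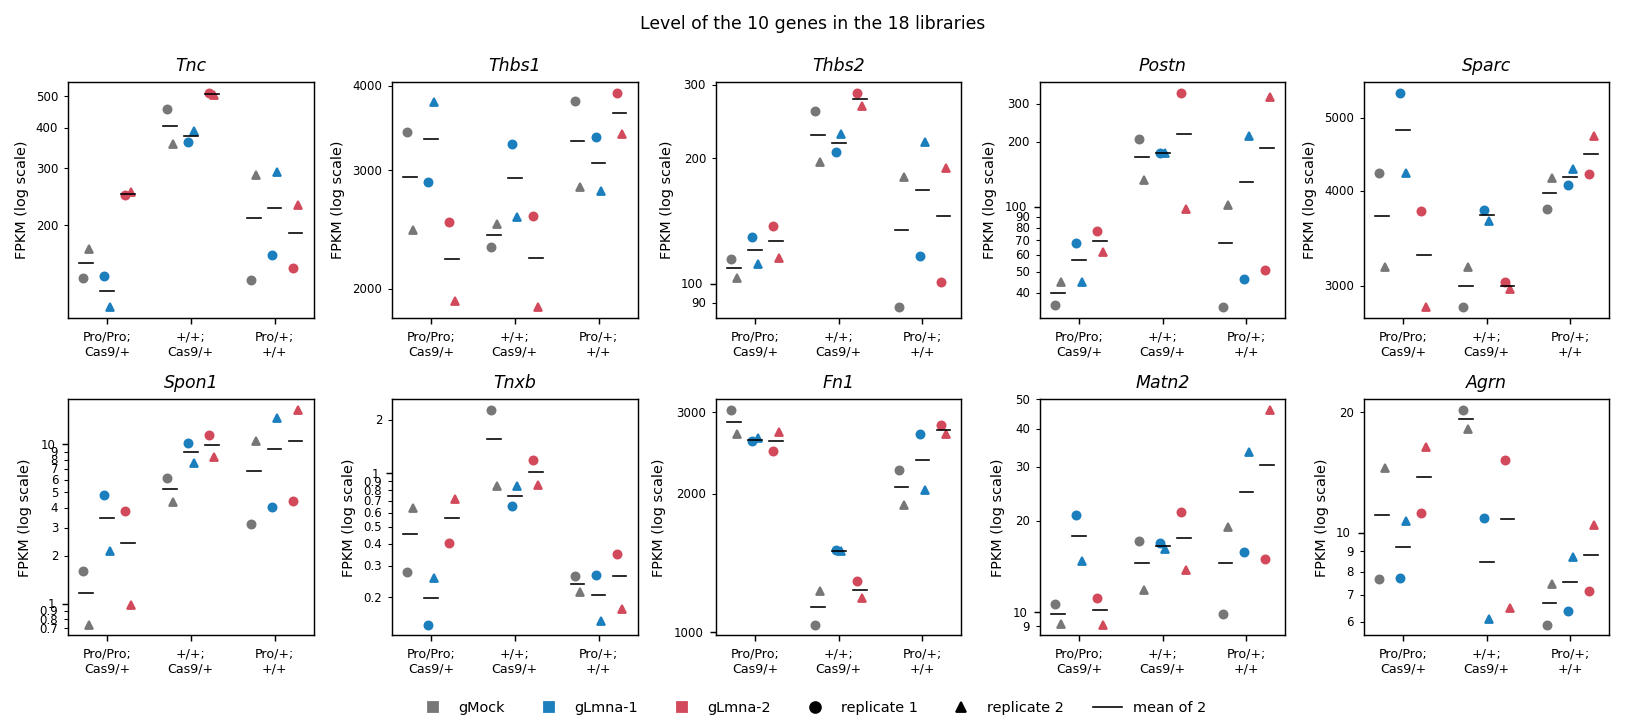
FPKM (log axis, with its own range in each panel) of the 10 genes in each of the 18 libraries, grouped by genotype and coloured by guide. Circles are replicate 1, triangles replicate 2 and bars the mean of 2. Fn1 is higher and Tnc lower in all 6 Pro/Pro;Cas9/+ libraries than in all 6 +/+;Cas9/+ libraries, and Postn, Spon1 and Matn2 differ between the pair of Pro/+; +/+ mice.

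The first comparison was between homozygous cells and wild-type cells that received the mock guide, 2 mice against 2. Fn1 was 2864 ± 242 FPKM (SD, n = 2) in homozygous cells and 1135 ± 134 in wild-type cells, a ratio of 2.52. Tnc stood at 154 ± 22.8 FPKM against 406 ± 70.4, a ratio of 0.38. Postn stood at 39.9 ± 7.0 against 170 ± 51.6 FPKM, a ratio of 0.24, and Thbs2 at 109 ± 8.01 against 228 ± 44.6, a ratio of 0.48. None of the 10 genes passed the test of this comparison (limma, adjusted p under 0.05), in which 0.397% of all tested genes did.

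The log2 difference of Fn1 was 1.34 ± 0.24 (SE, on the log2(FPKM + 1) scale, as are all differences below), with an adjusted p of 0.119 (limma). For Tnc it was -1.39 ± 0.36 (adjusted p = 0.240), for Postn -2.04 ± 0.51 (0.229), for Thbs2 -1.04 ± 0.34 (0.348) and for Spon1 -1.55 ± 0.49 (0.335). Agrn had -0.80 ± 0.28, but -0.38 or -1.22 without one of the homozygous gMock libraries and -0.08 on the mean of the 3 treatments of each mouse. Tnxb had -0.77 ± 0.31, with -0.36 or -1.18 without one of the wild-type gMock libraries and -1.75 by limma voom, and it entered the test only through wild-type libraries. Of the other 9 genes 6 had an unadjusted p under 0.05, as had 1308 of all genes. The weighted fit on recovered reads (limma voom) likewise called none of the 10, with Fn1 nearest at an adjusted p of 0.0774. The median difference of the 10 genes was -0.78, beside 0.00 over all tested genes. It lies between the values of Agrn and Tnxb, whose limits are given above, so no shift of the group is read from it. Thbs1 (0.27 ± 0.31), Sparc (0.30 ± 0.30) and Matn2 (-0.49 ± 0.32) did not have an unadjusted p under 0.05.

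Over all 6 libraries of each of these genotypes the picture for 4 genes was the same. Fn1 ran from 2479 to 3035 FPKM with a median of 2666 in homozygous cells and from 1040 to 1511 with a median of 1261 in wild-type cells. Tnc ran from 112 to 254 FPKM (median 155) against 356 to 514 (median 424). Thbs2 ran from 103 to 137 (median 115) against 196 to 287 (median 244), and Postn from 34.96 to 77.3 (median 53.3) against 97.2 to 338 (median 177). These 4 genes, 1 higher and 3 lower, had no overlap between the genotypes. Of all tested genes 6.68% had none, 3.09% higher and 3.6% lower. The 3 libraries of a mouse are not independent, so the non-overlap rests on 2 mice against 2. The macrophage sum also had no overlap between these genotypes (390.0 to 1326 against 57.4 to 373 FPKM), nor had the adipocyte sum (34.9 to 63.4 against 20.6 to 31.5 FPKM, mostly Fabp4, with Adipoq and Plin1 at or near 0). The part of either in these differences was not tested.

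Heterozygous cells, which lack Cas9, sat between or beside the other 2 genotypes, and their mice differed from each other. Fn1 was 1891 to 2810 FPKM there (median 2470), above every wild-type library. Tnc was 136 to 291 FPKM and below every wild-type library. Sparc (3785 to 4734 FPKM) was also above every wild-type library. These 3 genes had no overlap, as had 15.9% of all tested genes. Tnxb (0.15 to 0.35 FPKM) lay below every wild-type library too, but is not counted, since it was tested at all only through wild-type libraries. None of the 10 separated homozygous cells from heterozygous cells without overlap, beside 1.71% of all tested genes. Between the pair of heterozygous mice, the mean over the 3 treatments was 43.8 and 212 FPKM for Postn, 3.88 and 13.9 for Spon1, 13.5 and 33.0 for Matn2, and 102 and 196 for Thbs2. The second mouse was the higher in each of these genes. Copy number of Pro and presence of Cas9 both differ between homozygous cells and heterozygous cells and cannot be told apart.

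The second question was whether the 2 Lmna guides act on these genes beyond the mock guide where Cas9 is present. The 2 guides differed from each other in homozygous cells. With gLmna-2, Tnc was higher and Sparc and Matn2 were lower than with gLmna-1, in both mice. These 3 of the 10 genes passed, 1 higher and 2 lower, beside 9.95% of all tested genes (6.92% higher and 3.02% lower).

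Tnc was 140 and 112 FPKM with gLmna-1 in the mice of replicates 1 and 2, and 247 and 254 with gLmna-2. The gMock cultures of the same mice had 137 and 170. Both gLmna-2 libraries thus stood above the other 4, which overlapped each other. The gLmna-2 minus gLmna-1 difference was 1.00 ± 0.16 (adjusted p = 0.00863), with 0.82 and 1.17 in the single mice. Against gMock the difference was 0.71 ± 0.16 for gLmna-2 (adjusted p = 0.133) and -0.29 ± 0.16 for gLmna-1 (0.399), and these values share the libraries of the guide comparison.

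Sparc was 5394 and 4226 FPKM with gLmna-1, 3764 and 2816 with gLmna-2 and 4227 and 3178 with gMock. In each mouse gLmna-2 was the lowest and gLmna-1 the highest. The difference between the guides was -0.55 ± 0.12 (adjusted p = 0.0238), with -0.52 and -0.59 in the single mice. Matn2 was 20.9 and 14.7 FPKM with gLmna-1, 11.2 and 9.11 with gLmna-2 and 10.7 and 9.11 with gMock, so here it was the gLmna-1 libraries that stood apart. Its difference was -0.74 ± 0.17 (adjusted p = 0.0275).

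The other genes did not pass in this comparison. Thbs1 was 2883 and 3776 FPKM with gLmna-1 against 2515 and 1919 with gLmna-2 (-0.59 ± 0.22, adjusted p = 0.125). Agrn was 7.74 and 10.7 against 11.2 and 16.4 FPKM (0.53 ± 0.19, adjusted p = 0.118), and Spon1 4.78 and 2.14 against 3.79 and 0.97 (-0.47 ± 0.14, 0.0728). Fn1 was 2600 and 2638 against 2479 and 2726 FPKM (-0.01 ± 0.14). Thbs2 (0.07 ± 0.11), Postn (0.32 ± 0.39) and Tnxb (0.37 ± 0.20, from low counts) completed the set, and the median of the 10 differences was 0.03 beside 0.06 over all tested genes.

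These calls depended on few libraries. Without the gLmna-1 library of replicate 1, whose coverage stood apart, Tnc was at 1.24 and Sparc at -0.58. Thbs1 was then at -0.999 and Matn2 at -0.62. Without either gLmna-2 library none passed, with Sparc at -0.57 or -0.53, Matn2 at -0.71 or -0.78, and Tnc at 1.02 or 0.97 and adjusted p of 0.0688 or 0.0682. Read over the 3′-most parts alone, 3 of the 10 passed, and over the 5′-most parts 2. The share over all genes is not given for either setting, so these counts are not read as stability of the calls.

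**Figure D2:**
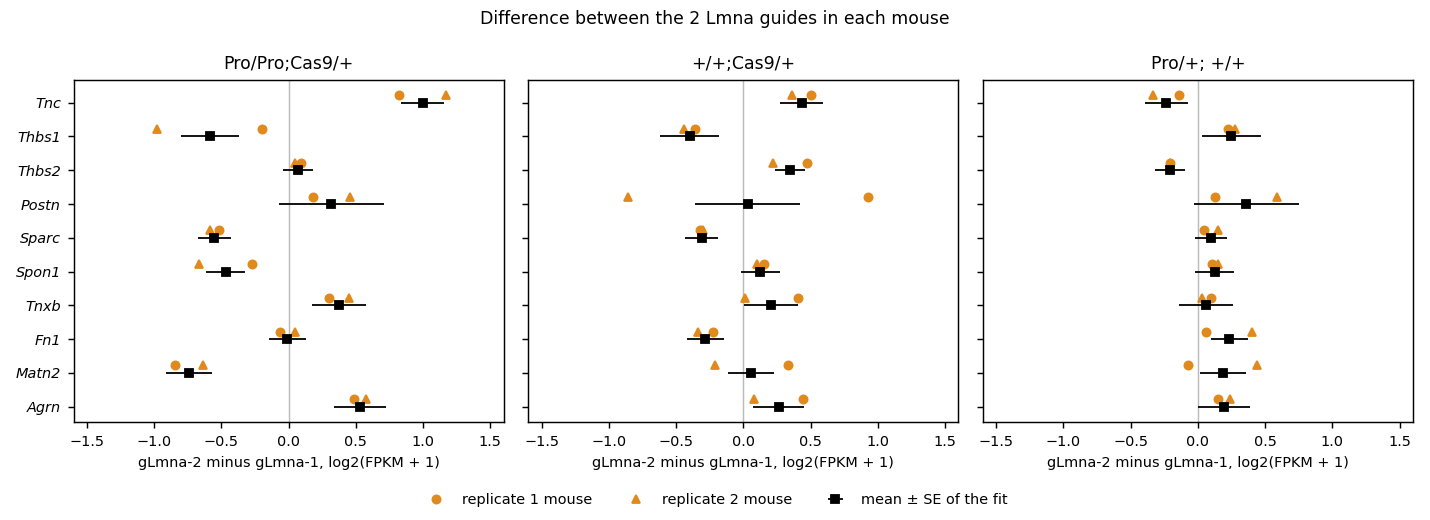
Difference between gLmna-2 and gLmna-1 in log2(FPKM + 1) for the 10 genes, 1 panel for each genotype. Circles and triangles are the single mice and squares the fitted mean with its SE. In Pro/Pro;Cas9/+ both mice lie at 0.82 or above for Tnc and at -0.52 or below for Sparc, and in Pro/+; +/+ both lie below 0 for Tnc.

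In wild-type cells the guides differed in none of the 10 genes by limma (0 of all genes, 0%, passed), with 3 of the 10 and 1009 of all genes at an unadjusted p under 0.05. Limma voom called none of the 10. Tnc was 363 and 391 FPKM with gLmna-1, then 514 and 504 with gLmna-2 (0.43 ± 0.16, adjusted p = 0.550). Sparc was 3779 and 3650 against 3030 and 2967 FPKM (-0.31 ± 0.12, 0.577). Tnc and Sparc thus had the same sign in all 4 Cas9-carrying mice. So had Thbs1, Thbs2, Agrn and Tnxb, and the share over all genes was not counted. In heterozygous cells, without Cas9, none of the 10 passed by limma or limma voom, again beside 0% of all genes, and 0 of the 10 against 266 of all genes had an unadjusted p under 0.05. Tnc was there 163 and 291 FPKM with gLmna-1, then 147 and 231 with gLmna-2 (-0.24 ± 0.16), and Sparc 4074 and 4272 against 4208 and 4734 (0.10 ± 0.12).

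The difference between genotypes was tested itself. By limma Tnc was the 1 gene of the 10 that passed between homozygous cells and heterozygous cells, beside 2.38% of all tested genes. Its guide difference was larger in homozygous cells by 1.23 ± 0.22 (adjusted p = 0.0341). Limma voom also called Sparc in this test (-0.65, adjusted p = 0.0238), so Tnc did not stand alone there. Without the library of divergent coverage the limma value of Tnc was 1.47, with Sparc at -0.68 and Thbs1 at -1.25. Leaving out any of the other 7 libraries of this comparison left Tnc short of the threshold, with values from 0.99 to 1.38 and adjusted p from 0.0629 to 0.218. Against wild-type cells none of the 10 passed, beside 0.0476% of all genes. Tnc differed by 0.56 ± 0.22 (adjusted p = 0.438), and 3 of the 10 and 1250 of all genes had an unadjusted p under 0.05, while limma voom called none of the 10.

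Spon1 was the gene that rose with a guide against gMock. F-spondin is a secreted protein first described in the floor plate of the spinal cord. In homozygous cells it was 1.595 and 0.74 FPKM under gMock, then 4.78 and 2.14 under gLmna-1, from 104 reads or more in every library. That difference was 1.00 ± 0.14 (limma, adjusted p = 0.0282), with 1.15 and 0.85 in the single mice, and it was the 1 call among the 10 beside 0.976% of all tested genes. It did not pass without either gMock library (0.75 and 1.25, adjusted p = 0.0564 and 0.0889) or without the gLmna-1 library of replicate 2 (0.98, 0.0532), and it passed without the library of divergent coverage (1.03, 0.0127). With gLmna-2 the levels were 3.79 and 0.97 FPKM (0.53 ± 0.14, adjusted p = 0.202), and no gene of the 10 passed for gLmna-2 against gMock, beside 0.357% of all genes. There 2 of the 10 (Tnc and Spon1) and 1272 of all genes had an unadjusted p under 0.05, and limma voom called none of the 10.

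The same gene was higher with both guides in wild-type cells and, without passing, in cells without Cas9. In wild-type cells it was 6.17 and 4.36 FPKM under gMock, 10.2 and 7.66 under gLmna-1, then 11.5 and 8.28 under gLmna-2, so all 4 guide libraries were above both gMock libraries. The difference was 0.73 ± 0.13 (adjusted p = 0.0307). In heterozygous cells it was 3.16 and 10.4 FPKM under gMock, 4.06 and 14.7 under gLmna-1, then 4.43 and 16.4 under gLmna-2 (0.43 ± 0.13, adjusted p = 0.996). Both guides were above gMock in all 6 mice, and the test of a larger guide difference in homozygous cells gave 0.33 ± 0.18 against heterozygous cells (adjusted p = 1.00) and 0.04 ± 0.18 against wild-type cells (1.00).

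Agrn was the other gene that passed in wild-type cells, where 2 of the 10 did, beside 0.849% of all tested genes. Agrn was 20.3 and 18.2 FPKM under gMock, 10.9 and 6.08 under gLmna-1, then 15.2 and 6.49 under gLmna-2. It fell by 1.01 on the log2 scale (SE 0.17, adjusted p = 0.0245), with -0.62 and -1.40 in the single mice. In homozygous cells the levels were 7.67 and 14.6 FPKM under gMock, 7.74 and 10.7 under gLmna-1, then 11.2 and 16.4 under gLmna-2 (0.06 ± 0.17). These calls rested on few libraries. Spon1 passed with none of the 6 libraries left out in turn (adjusted p from 0.122 to 0.493), and Agrn passed only without the gLmna-2 library of replicate 1 (-1.17, 0.0188), with values from -0.62 to -1.40 over all 6. The genotype test gave 1.07 ± 0.23 for Agrn, with an adjusted p of 0.238. In that test none of the 10 passed, beside 0.0476% of all genes, with 2 of the 10 at an unadjusted p under 0.05 and none of the 10 by limma voom.

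Taking both guides together against gMock, none of the 10 genes passed in homozygous cells by limma, beside 0.0794% of all tested genes. Spon1 (0.77 ± 0.13, adjusted p = 0.103) and Matn2 (0.40 ± 0.15, 0.490) had an unadjusted p under 0.05, as did 1055 of all genes, and limma voom called Spon1 (adjusted p = 0.0340). Without the library of divergent coverage Spon1 passed as well (0.78, adjusted p = 0.0454). In heterozygous cells none of the 10 and none of all genes (0%) passed, while 5 of the 10 and 397 of all 12599 genes had an unadjusted p under 0.05. Among these, Matn2 was 9.87 and 19.1 FPKM under gMock, 15.8 and 33.7 under gLmna-1, then 14.9 and 46.2 under gLmna-2 (0.80 ± 0.15, adjusted p = 0.996). Postn, 34.3 and 102 FPKM under gMock, was 46.3 and 213 under gLmna-1, then 50.8 and 322 under gLmna-2 (0.92 ± 0.34). These cells carry no Cas9. The genotype test of both guides between homozygous cells and heterozygous cells called none of the 10 by limma or limma voom and 0% of all genes, with 1 of the 10 and 523 of all genes at an unadjusted p under 0.05.

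The alternative exons were read next, as the ratio of an optional part to the mean of the internal parts that all listed transcripts of the gene hold. Fn1 had 6 such parts among 50. EDA was at a ratio of 0.22 to 0.28 in homozygous cells (median 0.248), 0.21 to 0.24 in wild-type cells (0.230) and 0.24 to 0.30 in heterozygous cells (0.256), from 1525 reads or more. EDB was lower, with medians of 0.106, 0.0997 and 0.130 in the same order, from 704 reads or more. Both exons were covered less than the constant parts in every library, and the homozygous range overlapped both others for each exon. For EDA the lowest heterozygous ratio (0.238) was just above the highest wild-type ratio (0.236), while for EDB these ranges overlapped. How many other parts separate so was not counted. A coverage ratio is not a direct measure of exon inclusion. Relative to the constant parts on either side the medians of EDA were 0.241, 0.229 and 0.254.

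With the mock guide, EDA was 0.257 ± 0.0045 (SD, n = 2) in homozygous cells and 0.236 in both wild-type libraries, while total Fn1 differed 2.52-fold. The fitted difference of EDA within Fn1 was 0.11 ± 0.14 and that of EDB -0.12 ± 0.17, neither passing. The short segment of the variable region, at chr1:71597673-71597747, had medians of 0.790, 0.785 and 0.759 for homozygous cells, wild-type cells and heterozygous cells. The long segment beside it, at chr1:71597388-71597672, had 1.51, 1.43 and 1.42. Values above 1 sit at the 3′ side of the gene, where coverage was higher in every library, and against the neighbouring constant parts the long segment was at 1.19, 1.16 and 1.17. Between gLmna-2 and gLmna-1 in homozygous cells EDA was 0.233 ± 0.013 against 0.249 ± 0.043. The 2 gLmna-1 values were 0.279 in the library of divergent coverage and 0.218 in the other.

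None of the Tnc parts is optional in the annotation used, so the 5 single-exon repeats shown above were chosen after their values were seen. They were taken as a run of repeats whose mean level was below that of the parts on both sides. Together they were at a ratio of 0.58 to 0.69 in homozygous cells (median 0.650), 0.52 to 0.66 in wild-type cells (0.566) and 0.66 to 0.70 in heterozygous cells (0.676). With gMock they were at 0.676 ± 0.022 in homozygous cells and 0.559 ± 0.021 in wild-type cells. With gLmna-1 the values were 0.655 ± 0.021 against 0.642 ± 0.031, and with gLmna-2 0.608 ± 0.038 against 0.539 ± 0.027. Because the repeats were picked for their low level, their lower coverage than the constant parts of Tnc is not a result. Their ratio was lowest in the gMock and gLmna-2 groups of wild-type cells, which also had the highest Tnc levels.

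No part passed in any of the 3 comparisons of parts (limma over 91459 parts of 8295 genes, so 0% of all parts). Of the 11 parts of Fn1 and Tnc, 0 had an unadjusted p under 0.05 between the guides in homozygous cells, 2 for both guides against gMock, and 4 between the genotypes under gMock. Over all 91459 parts the numbers were 6940, 5509 and 5318. The 4 were Tnc repeat exons 1 to 4, with differences of 0.34 to 0.44 and adjusted p of 0.857. These exons entered the set after their values were seen and are neighbours in 1 gene. Their number is therefore not read as a result.

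**Figure D3:**
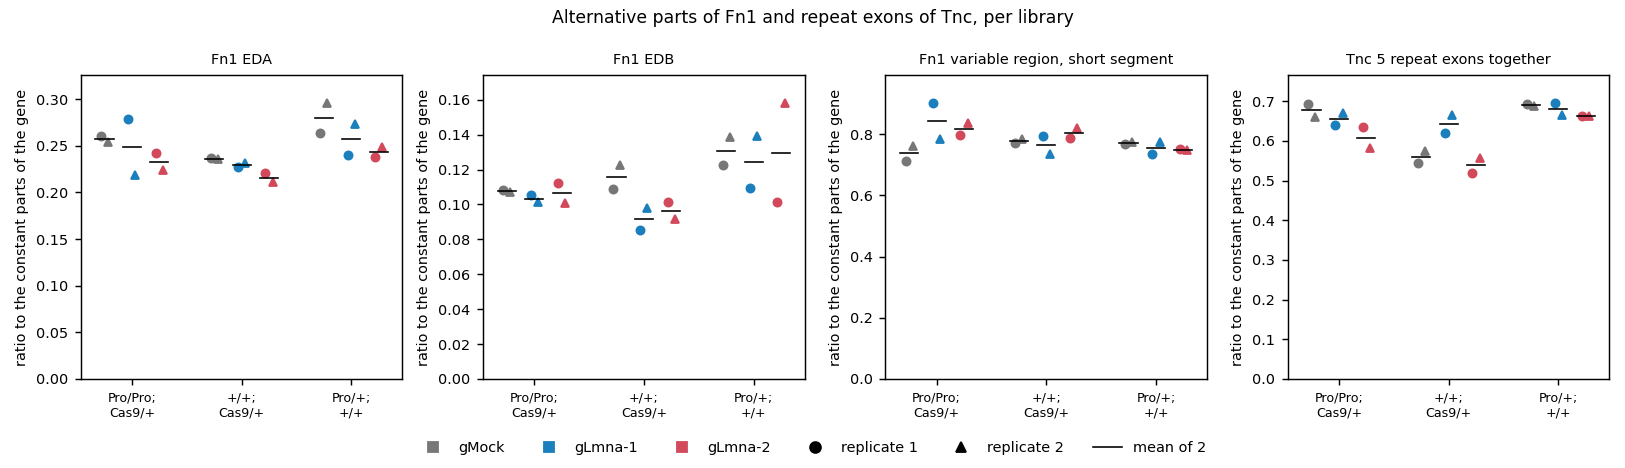
Ratio of each alternative part to the constant parts of the same gene (axis from 0) in the 18 libraries, grouped by genotype and coloured by guide. EDA stays between 0.21 and 0.30 and EDB between 0.086 and 0.16, and the Tnc repeats are lowest in +/+;Cas9/+ with gMock and gLmna-2.

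The receptors and partners of these proteins were read from lists of pathway genes. Integrins are αβ pairs that bind fibronectin, tenascin-C, periostin and thrombospondins, syndecans are co-receptors for fibronectin and thrombospondins, and CD36 binds thrombospondin-1. Between the guides in homozygous cells, 7 of 27 tested receptors rose with gLmna-2 and 2, Itga11 and Sdc2, fell, beside 6.92% of all genes higher and 3.02% lower. The median receptor difference was 0.14 beside 0.06 over all genes. With the library of divergent coverage left out 9 rose and 4 fell, when 1786 of all 12599 genes rose and 843 fell. Itga6, the α6 chain of laminin receptors, was 4.06 and 5.22 FPKM with gLmna-1, then 13.7 and 30.1 with gLmna-2 (1.93 ± 0.22, adjusted p = 0.00301). Itgb1, the β1 chain shared by most fibronectin and collagen receptors, was 370 and 377 against 561 and 601 FPKM (0.64 ± 0.08, adjusted p = 0.00437). Itgav, the αv chain that pairs with it and with β3, was 17.6 and 23.7 against 30.0 and 36.7 FPKM (0.67 ± 0.08, 0.00378).

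Itgb3, Itgb4, Sdc3 and Cd36 also rose, by 1.14, 0.50, 0.62 and 0.93. Of these Itgb3, Itgb4 and Cd36 were low. With gLmna-1 they were at 1.09 and 1.18, 0.55 and 0.92, and 0.54 and 2.11 FPKM, in that order. With gLmna-2 they were at 2.96 and 4.60, 1.08 and 1.86, and 2.20 and 4.42 FPKM. With gMock, Itgb1 (426 and 499 FPKM) and Itga6 (9.53 and 28.2) lay between the guides in each mouse, whereas Itgav (26.7 and 41.2) was above gLmna-2 in the second mouse. Against gMock, gLmna-1 cultures were lower in Itga6 (-1.64 ± 0.22, adjusted p = 0.0269) and Itgav (-0.68 ± 0.08, 0.0243), a comparison that shares its gLmna-1 libraries with the one above. The guide difference was larger in homozygous cells than in heterozygous cells for 4 receptors, Itga6, Itgav, Itgb1 and Itgb3. In that test 2.38% of all tested genes passed. Against wild-type cells no receptor passed with all libraries, beside 0.0476% of all genes. Without the library of divergent coverage the differences from heterozygous cells were 2.85 for Itga6, 0.75 for Itgav, 0.79 for Itgb1 and 1.398 for Itgb3. Without it Itga6 was at 2.42 (adjusted p = 0.000219), Itgb1 at 0.70 (0.00106) and Itgav at 0.69 (0.00261) between the guides. Against gMock, Itga6 was then at -2.13 (0.000692) and Itgav at -0.69 (0.00528).

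**Figure D4:**
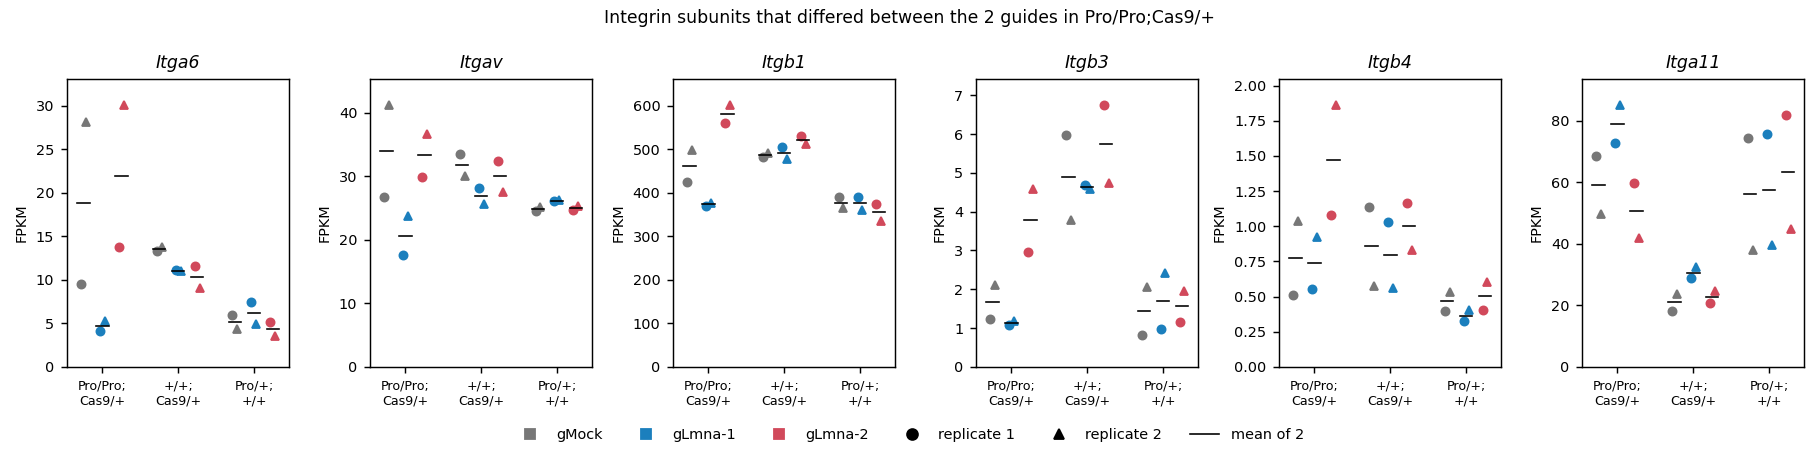
FPKM (axis from 0) of the 6 integrin subunit genes that passed between gLmna-2 and gLmna-1 in Pro/Pro;Cas9/+, in the 18 libraries. In Pro/Pro;Cas9/+ the gLmna-1 libraries are the lowest of the 3 treatments for Itga6, Itgav and Itgb1 in both mice, and Itga11 goes the other way.

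Of 17 other matricellular genes tested, 1 rose and 5 fell between the guides in homozygous cells, beside 6.92% and 3.02% of all genes, with a median of -0.19 against 0.06. Without the library of divergent coverage the median was -0.49 against 0.05. Smoc2, a SPARC relative, was 95.0 and 104 FPKM with gLmna-1 against 235 and 326 with gLmna-2 (1.47 ± 0.22, adjusted p = 0.00675). Ccn5, a CCN family member without the carboxy-terminal domain, was 603 and 720 against 370 and 324 FPKM (-0.93 ± 0.14, 0.00787). Thbs4, Thbs3 and Comp, the pentameric thrombospondins, fell by 0.89, 0.61 and 1.02, and Fstl1 by 0.35. Without the library of divergent coverage Smoc2 was at 1.85 (adjusted p = 0.00112) and Ccn5 at -1.17 (0.00103), while Comp no longer passed (-0.49, 0.196). Thbs1 and Thbs2, the trimeric thrombospondins, did not pass in this comparison with all libraries. In the same libraries the sum of the cartilage and bone markers was 150.3 and 414 FPKM with gLmna-1, then 15.01 and 231 with gLmna-2. Its high values were mostly Col2a1. The macrophage sum was 390.0 and 1006 against 1326 and 693. The part of either sum in the guide difference was not tested.

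Of 20 other adhesive and basement membrane genes tested, 4 rose and 1 fell in that comparison, beside 6.92% and 3.02% of all genes, with a median of 0.18 against 0.06. Leaving out the library of divergent coverage, the median of these genes was again 0.18. Npnt, an integrin α8β1 ligand, was 1.92 and 0.82 FPKM with gLmna-1 against 5.66 and 3.52 with gLmna-2 (1.25 ± 0.12, adjusted p = 0.00301), and its guide difference also differed from that in wild-type cells (1.71 ± 0.18, 0.0249). Nid2, which bridges laminin and collagen IV, was 83.8 and 63.5 against 38.7 and 21.3 FPKM (-1.31 ± 0.19, 0.00655), while its relative Nid1 rose by 0.37. Lama2, a laminin α chain gene at a low level, rose by 0.60, from 2.12 and 1.23 FPKM to 2.69 and 3.36. With gLmna-1 against gMock, Thbs4 (1.20 ± 0.17, adjusted p = 0.0269) and Fbln1 (0.80 ± 0.14, 0.0417) rose and Npnt (-0.81 ± 0.12, 0.0316) fell. With that library left out, Npnt was at 1.20 (adjusted p = 0.00195) and Nid2 at -1.63 (0.00128) between the guides, and against gMock Thbs4 was at 1.37 (0.00636), Fbln1 at 0.97 (0.00829) and Npnt at -0.76 (0.0192). In the guide comparisons of wild-type cells and heterozygous cells and in the genotype comparison no gene of these 3 lists passed by limma.

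As a description, the genes that tracked 3 of the members most closely were found by the Pearson r of log2(FPKM + 1) after removal of each mouse's mean, over the 18 libraries and 10442 genes. For Tnc they were Dpysl3 (0.986), Nkain1 (0.971) and Tmem200a (0.965). For Sparc they were Wls (0.968), C1qtnf6 (0.954) and Col1a1 (0.952). Fn1 had looser companions, Kank1 (0.802), Lama5 (0.797) and Maml1 (0.794). Among the members Tnc and Thbs1 moved most in opposite directions (-0.899), followed by Tnc and Sparc (-0.795). All these values share libraries and mice.

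Several members overlap other annotated genes, and whether the counting used strand is not given in the sources used here. Exons of Tnc, Thbs1, Fn1 and Matn2 overlap exons of a gene on the opposite strand by 104, 98, 197 and 70 bases at most, and those of Tnxb by 3 bases. Thbs1 lies at chr2:118111876-118127133, Sparc at chr11:55394159-55420080, Spon1 at chr7:113765998-114043375, Matn2 at chr15:34306681-34436240 and Agrn at chr4:156165290-156197488 (all mm10). Postn lies at chr3:54361107-54391041, with 5 listed transcripts, and Thbs2 and Tnxb at chr17:14665500-14694262 and chr17:34670535-34719815.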

How the data were processed

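RNA of 18 tail-tip fibroblast libraries was sequenced. FastQC 0.11.2, STAR 2.4.0k, HOMER and mm10 are named in the submitters' processing notes, without roles. The deposited table, made by the authors with HOMER per the file headers, gives FPKM of exon parts. Whether counting used strand is not given in the sources used here. Here parts were joined to transcripts, 1 per symbol, and reads were recovered (all values whole within 0.05 reads). Differences were fitted with limma 3.58.1 in R 4.3.3 (lmFit, eBayes with trend) on log2(FPKM + 1), for the 12599 genes at 1 FPKM or more in at least 2 libraries, with mouse as a block and all genotypes in 1 fit (the genotype comparison used the 6 gMock libraries without a block), and Benjamini-Hochberg adjustment, threshold 0.05. Parts needed 5 FPKM in 9 libraries and 3 parts per gene. The fits were tested on simulated data. Figures used matplotlib 3.10.9. Of 24 library columns 6 were not used.

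The block rests on the mouse names in the labels. Deviations from the group means correlated between libraries of a mouse at -0.0193 to 0.778 in Pro/Pro;Cas9/+, 0.472 to 0.734 in Pro/+; +/+ and 0.176 to 0.59 in +/+;Cas9/+. At the lowest value, in Pro/Pro;Cas9/+, a pair of libraries did not deviate together. Named were all 10 members, Lmna, up to 3 genes of each list with the smallest p among those past the threshold in a comparison, and the 3 genes most like Tnc, Fn1 and Sparc. The other list genes past the threshold were named after their values were seen. The members and lists were chosen with earlier results of these data known. One list gene past the threshold is counted but not reported here.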

Additional observations from a re-analysis of the deposited data

Results flagged for a closer look

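The gLmna-2 minus gLmna-1 difference of Tnc in Pro/Pro;Cas9/+ cells exceeded that in Pro/+; +/+ cells by 1.23 on the log2(FPKM + 1) scale, a difference between genotypes tested by an interaction term (limma, adjusted p = 0.0341). Tnc was higher with gLmna-2 in 2 of 2 mice of the first genotype and lower in 2 of 2 of the second. It was also higher in both +/+;Cas9/+ mice (0.50 and 0.36), and the test against that genotype did not pass. Of 17 alternative settings of the flagged test, 12 left Tnc short of the threshold. The first genotype carries Cas9 and the second does not, and they also differ in the number of Pro copies, so these cannot be told apart.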

How the results depend on the processing

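Counts below are of the 10 genes past the threshold. Between the guides in Pro/Pro;Cas9/+ the count of 3 became 4 with a pseudocount of 0.1 (Spon1, adjusted p = 0.0435) and 2 without the low-value filter, went to 0 with no replicate block and to 0 with only that genotype in the fit, and leaving out 1 library gave 0 to 3. All genes called there fell from 1253 to 59, to 0, and to 140 or 238 without a gLmna-2 library, and rose to 2629 without the gLmna-1 library of replicate 1. For both guides in +/+;Cas9/+ the count of 2 became 1 with a pseudocount of 0.1, on the 3′-most parts or with only that genotype, became 0 without the low-value filter, on the 5′-most parts or with no replicate block, and was 0 to 1 with 1 library left out. For gLmna-1 against gMock the count of 1 became 0 without that filter, on the 5′-most parts, with no replicate block or with only that genotype, and was 0 to 1 with 1 library left out. For both guides in Pro/Pro;Cas9/+ the count of 0 became 1 with limma voom, and 0 to 1 with 1 library left out. For the guide difference between Pro/Pro;Cas9/+ and Pro/+; +/+ the count of 1 became 2 with limma voom and 0 without the filter, on either set of parts, with no replicate block or with only those genotypes, and was 0 to 3 with 1 library left out. The cause was not tested. The settings on 3′-most and 5′-most parts were chosen after seeing the data, and their shares over all genes are not given.

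Mouse pairing was part of the reported fits. With no replicate block the adjusted p was 0.188 for Tnc, 0.249 for Sparc and 0.489 for Matn2 between the guides. With a replicate block across mice, the genotype comparison still called 0 of the 10. The 7 called results kept their sign in all 99 alternatives and stayed past the threshold in 45. Of 1891 alternatives to the 123 other results 7 passed and 79 had the other sign. With the mouse block, p-values of the guide tests measure how unevenly the guide effects ran in these 6 mice, pooled over genotypes. Those of the genotype comparison measure the spread within genotypes of the 6 gMock libraries. In both the spread was also moderated across genes by limma. With 2 mice a group, they speak for these mice only.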
